A study of Mus musculus with 7 samples.

Results

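Strand exchange genes and recombinase loading genes of meiotic recombination are represented here by 7 genes, chosen by the known function of their proteins: *Dmc1*, *Psmc3ip*, *Mnd1*, *Meiob*, *Spata22*, *Hsf2bp* and *Brca2*. They are 7 of the 21928 genes with values in the tables, and all 7 were among the 13630 genes that could be tested, for which the TPM (a level per transcript length that sums to 1000000 in a library) had to reach 1 in 3 or more of the 7 libraries. Bulk RNA-seq was carried out on testes enriched for preleptotene spermatocytes from 4 wild-type and 3 *Meioc*-null pups of the C57BL/6N strain. *Meioc* encodes a cytoplasmic protein that acts with RNA-binding partners at the entry into meiosis, and the null allele is carried in every cell of the pup. From P2 to P8, pups of both genotypes were given a daily dose (0.1 mg/g body weight) of WIN 18,446, a blocker of retinoic acid production, and on P9 they were given 0.0125 mg/g of retinoic acid itself. Collection followed 6.75 days later, and each library was made from 1.5 testes of 1 pup. The libraries are whole testis, so somatic cells are included.

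In meiotic prophase, double-strand breaks are resected to single-stranded DNA, which is coated first by RPA and then by recombinase, of which DMC1 is the meiotic form. BRCA2 brings recombinase to the single-stranded DNA, and in meiosis it is guided there by HSF2BP (also called MEILB2) with its partner BRME1. MEIOB and SPATA22 form a heterodimer that binds RPA-coated DNA, and PSMC3IP (HOP2) and MND1 form a heterodimer that helps the recombinase filament invade the homologous chromosome. The question addressed by the comparison is whether transcripts for this machinery differ in abundance without MEIOC at the stage that precedes prophase.

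The promoter sequences of 4 of the genes are shown because 3 of them hold the letters GCGGGAA. *Dmc1*, which also differed between the genotypes, does not hold this string. GCGGGAA is a form of the binding core of the E2F family, whose repressive member E2F6 the study examines. Other forms of E2F sites were not searched, so their absence from the *Dmc1* window is not implied. Each covers 250 bases before to 50 bases after the transcription start in the RefSeq table for GRCm38.p6, is written 5′ to 3′ on the strand of the gene, and has any match to GCGGGAA, on either strand, in capitals. The *Spata22* window is chr11:73329491-73329790 (plus strand), that of *Hsf2bp* is chr17:32034459-32034758 (minus strand), that of *Brca2* is chr5:150522371-150522670 (plus strand) and that of *Dmc1* is chr15:79605060-79605359 (minus strand).
Spata22: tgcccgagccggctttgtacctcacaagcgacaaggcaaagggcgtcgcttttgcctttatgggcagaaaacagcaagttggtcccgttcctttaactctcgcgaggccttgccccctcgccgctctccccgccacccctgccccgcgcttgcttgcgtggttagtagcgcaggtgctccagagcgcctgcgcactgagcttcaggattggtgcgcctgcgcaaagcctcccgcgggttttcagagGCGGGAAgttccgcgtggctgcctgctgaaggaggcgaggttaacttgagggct
Hsf2bp: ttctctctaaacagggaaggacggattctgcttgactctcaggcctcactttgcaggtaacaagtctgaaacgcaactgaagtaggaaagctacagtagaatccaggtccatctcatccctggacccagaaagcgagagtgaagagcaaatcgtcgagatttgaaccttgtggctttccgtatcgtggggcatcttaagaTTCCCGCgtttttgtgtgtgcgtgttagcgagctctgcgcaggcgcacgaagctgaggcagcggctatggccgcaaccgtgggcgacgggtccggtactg
Brca2: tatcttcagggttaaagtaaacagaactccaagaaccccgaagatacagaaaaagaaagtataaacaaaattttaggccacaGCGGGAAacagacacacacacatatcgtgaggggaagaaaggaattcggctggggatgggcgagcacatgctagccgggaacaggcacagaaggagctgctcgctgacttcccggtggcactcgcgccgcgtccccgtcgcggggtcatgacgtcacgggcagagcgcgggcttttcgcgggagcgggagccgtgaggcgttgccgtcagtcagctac
Dmc1: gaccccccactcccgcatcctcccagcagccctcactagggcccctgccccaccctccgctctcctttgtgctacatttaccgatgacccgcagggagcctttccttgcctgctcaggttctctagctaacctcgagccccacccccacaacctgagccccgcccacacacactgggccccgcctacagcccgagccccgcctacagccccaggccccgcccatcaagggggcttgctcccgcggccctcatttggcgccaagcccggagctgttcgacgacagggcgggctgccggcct
The RefSeq table held a promoter for 6 of the 7 genes, *Meiob* not being matched. GCGGGAA was found in 3 of these 6. The match begins 4 bases before the start in *Spata22* on the gene's strand, 168 bases before it in *Brca2* on the gene's strand, and 50 bases before it in *Hsf2bp*, where it lies on the other strand and reads TTCCCGC. Of all 32851 promoters in the table, 4.6% held it, and of the 13574 promoters of tested genes, 8.07% did. CNCCTCAG, the letters of the STRA8 motif, were found in 0 of the 6 promoters and in 7.94% of all promoters, and the E-box CACGTG was found in 0 of the 6 and in 7.15% of all. Each motif was searched on both strands, and no match overlapped a match to another of the 3 motifs. A match or its absence describes only these letters in these windows.

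The libraries held 12537852 to 20552702 estimated counts each, and 3 counts correspond to 0.146 to 0.240 CPM (counts per 1000000 counts of the library). *Meioc* itself was called lower in the null pups by edgeR's quasi-likelihood test (log2 fold change of wild type over *Meioc*-null 0.76, SE 0.159, adjusted p = 0.0207), with 466 to 718 CPM in wild type and 299 to 412 CPM in *Meioc*-null; the call was lost when any 1 library not numbered 1 was left out (adjusted p up to 0.0638). Which exons the allele lacks is not given in the sources used here, so the count over the whole gene checks the labels only in part. Libraries numbered 1 were closer to each other than to the other libraries of their own genotype. Over all tested genes, the mean squared difference between wild-type replicate 1 and *Meioc*-null replicate 1 was 11.2 times counting noise. It was 14.5 to 25.0 times between wild-type replicate 1 and the other wild-type libraries. Between *Meioc*-null replicate 1 and the other *Meioc*-null libraries it was 15.1 to 26.7 times. Between libraries not numbered 1, it was 7.87 to 17.2 times within wild type and 21.7 times within *Meioc*-null. Results for the 7 genes are therefore given with and without these libraries. With p-values taken over 1 pup per library, the tests measure the spread between pups.

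All 7 genes had higher values in every wild-type library than in any *Meioc*-null library, on the scale of TMM-normalized CPM. Of the 7, 6 were called higher in wild type at an adjusted p under 0.05 and 0 lower, while over all 13630 genes tested 7.77% were called higher and 3.33% lower. Non-overlapping CPM between the genotypes, in either direction, was found for 26.2% of tested genes. The median log2 fold change (wild type over *Meioc*-null) was 1.21 over the 7 genes and -0.0065 over all tested genes. The count of 6 was 3 without wild-type replicate 3, *Meioc*-null replicate 2 or *Meioc*-null replicate 3. Calls over all genes tested fell in these fits as well. They went from 1513 to 275 without wild-type replicate 3 and to 131 without *Meioc*-null replicate 3. In whole testis, fewer cells of a type and less RNA per cell cannot be told apart. *Spata22* had the largest difference of the 7, with 8.39-fold more in wild type, and *Mnd1* the smallest, with 1.49-fold.

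**Figure D1:**
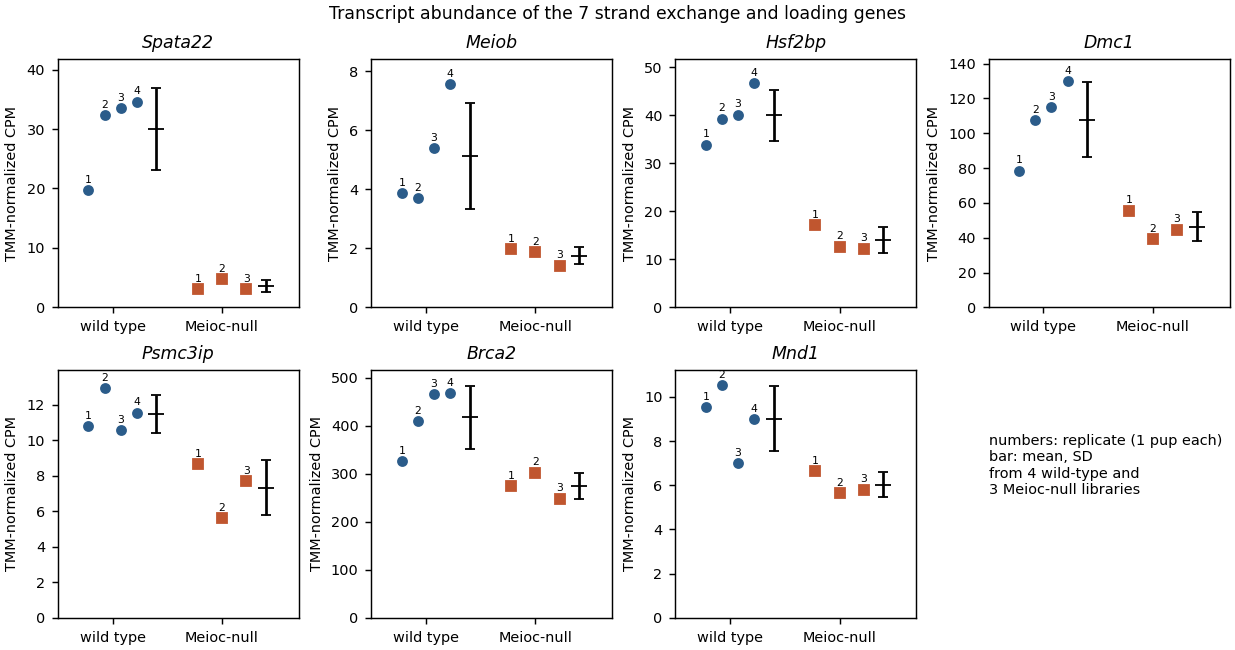
Transcript abundance of each gene in each library, in TMM-normalized CPM on a linear axis from 0. Circles are the 4 wild-type libraries, squares are the 3 *Meioc*-null libraries, numbers are replicates, and the bars give the mean and SD. The gap between the genotypes is widest for *Spata22*, whose lowest wild-type library is 4.15 times its highest *Meioc*-null library, and narrowest for *Mnd1*, where that ratio is 1.05.

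*Dmc1* encodes the meiosis-specific recombinase (chr15:79561497-79605109, minus strand). It was measured at 78.6, 108, 115 and 130 CPM in wild-type replicates 1 to 4, and at 55.5, 39.0 and 44.6 CPM in *Meioc*-null replicates 1 to 3. The lowest wild-type library was replicate 1, and it was 1.41 times the highest *Meioc*-null library, also replicate 1. Means were 108 ± 21.5 CPM (SD, n = 4) and 46.4 ± 8.40 CPM (SD, n = 3). The log2 fold change of *Dmc1* was 1.21 (SE 0.175, adjusted p = 0.00782 by edgeR). *Dmc1* remained past the threshold when any 1 of the 7 libraries was left out, with a log2 fold change from 1.10 to 1.36.

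*Psmc3ip* and *Mnd1*, whose products together assist strand invasion, differed less. *Psmc3ip* (chr11:101091823-101095436, minus strand) was measured at 10.8, 13.0, 10.6 and 11.6 CPM in wild type and at 8.68, 5.63 and 7.70 CPM in *Meioc*-null. With means of 11.5 ± 1.08 CPM (SD, n = 4) and 7.34 ± 1.55 CPM (SD, n = 3), its log2 fold change was 0.64 (SE 0.167, adjusted p = 0.0397 by edgeR). The call was kept without wild-type replicate 1 or without *Meioc*-null replicate 1 and was lost when any 1 of the other 5 libraries was left out, with adjusted p up to 0.108. *Mnd1* (chr3:84087933-84155786, minus strand) was measured at 9.53, 10.5, 7.005 and 9.01 CPM in wild type and at 6.65, 5.63 and 5.80 CPM in *Meioc*-null. The lowest wild-type value of *Mnd1* was 1.05 times its highest *Meioc*-null value, and the means were 9.02 ± 1.48 CPM (SD, n = 4) and 6.03 ± 0.547 CPM (SD, n = 3). Its log2 fold change was 0.58 (SE 0.170), and its adjusted p of 0.0565 by edgeR missed the threshold, whereas DESeq2 gave 0.0335. Both genes rest on few reads, with 78 to 230 counts per library for *Psmc3ip* and 78 to 179 for *Mnd1*.

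*Meiob* and *Spata22*, the genes for the heterodimer that binds single-stranded DNA, gave fold changes of different size. That of *Spata22* was the largest of the 7, while that of *Meiob* was second in the fit with TMM and all libraries. *Meiob* fell behind *Hsf2bp* in some alternatives, among them log2(TPM + 1) and log2(TPM + 0.1). It also did so without wild-type replicate 4, *Meioc*-null replicate 1 or *Meioc*-null replicate 3. *Spata22* (chr11:73329741-73346044, plus strand) was measured at 19.8, 32.3, 33.5 and 34.6 CPM in wild-type replicates 1 to 4 and at 3.04, 4.77 and 3.09 CPM in *Meioc*-null replicates 1 to 3. Wild-type replicate 1 lay well below the other 3 wild-type libraries and still above every *Meioc*-null library. The means were 30.1 ± 6.91 CPM (SD, n = 4) and 3.63 ± 0.985 CPM (SD, n = 3), so that the *Meioc*-null mean was 12.1% of the wild-type mean. The log2 fold change of *Spata22* was 3.07 (SE 0.245, adjusted p = 0.000729 by edgeR), the 16th largest in the wild-type direction of all 13630 genes tested, and it was past the threshold without each of the 7 libraries (2.96 to 3.29).

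*Meiob* (chr17:24804289-24839788, plus strand), which the study also uses as a marker of leptotene and zygotene cells, was measured at 3.86, 3.69, 5.39 and 7.55 CPM in wild type and at 1.97, 1.88 and 1.41 CPM in *Meioc*-null. Wild-type replicate 4 was the highest, and the coefficient of variation in wild type, 34.9%, was the widest of the 7 genes. With means of 5.12 ± 1.79 CPM (SD, n = 4) and 1.75 ± 0.300 CPM (SD, n = 3), the log2 fold change was 1.56 (SE 0.298, adjusted p = 0.0174 by edgeR). *Meiob* had only 26 to 150 counts per library. Its call was lost without wild-type replicate 3 (adjusted p = 0.0527), without *Meioc*-null replicate 2 (0.0534) and without *Meioc*-null replicate 3 (0.0711), while the log2 fold change stayed between 1.29 and 1.69.

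The tables place *Spata22* inside a longer readthrough gene on the same strand, *Gm49340*, and 80.0% of the 31-base words of the *Spata22* transcript also occur in transcripts of another gene. kallisto gave *Gm49340* at most 12.2 estimated counts in any library and 0 in 5 of the 7. With those counts added to *Spata22*, its log2 fold change was 3.08.

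*Hsf2bp* and *Brca2* encode the loading factors. *Hsf2bp* (chr17:31944769-32036349, minus strand), whose product localizes BRCA2 in meiotic cells, was measured at 33.9, 39.3, 40.1 and 46.7 CPM in wild type and at 17.1, 12.6 and 12.3 CPM in *Meioc*-null. The lowest wild-type library was 1.98 times the highest *Meioc*-null library. Means were 40.0 ± 5.27 CPM (SD, n = 4) and 13.996 ± 2.69 CPM (SD, n = 3). Its log2 fold change was 1.51 (SE 0.152, adjusted p = 0.00182 by edgeR), past the threshold without each of the 7 libraries.

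*Brca2* (chr5:150522630-150570329, plus strand), which also acts in repair outside meiosis, was measured at 326, 410, 466 and 468 CPM in wild type and at 274, 302 and 249 CPM in *Meioc*-null. Wild-type replicate 1 was again the lowest of its genotype and was 1.08 times *Meioc*-null replicate 2, the highest of its own. The log2 fold change was 0.60 (SE 0.130, adjusted p = 0.0227 by edgeR), with means of 417 ± 66.5 CPM (SD, n = 4) and 275 ± 26.9 CPM (SD, n = 3). As with *Psmc3ip*, the call was kept without either library numbered 1 and lost without any 1 of the other 5, with adjusted p up to 0.0872. Reads of *Brca2* were divided between 2 transcripts, of which Brca2-210 held 78.9% to 89.3% of the gene's TPM in each library, and the other 6 genes had 1 transcript each.

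Leaving out both libraries numbered 1, an alternative chosen after their values were seen, gave log2 fold changes of 3.11 for *Spata22*, 1.78 for *Meiob*, 1.76 for *Hsf2bp* and 1.49 for *Dmc1*. Those of the other 3 genes were 0.80 for *Psmc3ip*, 0.70 for *Brca2* and 0.63 for *Mnd1*. The count of genes called was 6 of 7, as with all libraries, and *Mnd1* was again the gene that missed the threshold (adjusted p = 0.0722 by edgeR).

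The calls of *Psmc3ip* and *Brca2*, which were lost without any 1 of 5 libraries, were also lost under some scalings. *Spata22*, *Meiob*, *Hsf2bp* and *Dmc1* were past the threshold under each scaling tried, whereas *Psmc3ip* and *Brca2* were not past it in log2(TPM + 1), where limma replaced edgeR, or when libraries were scaled to germ cell markers, and *Psmc3ip* was not with library size alone (adjusted p = 0.0555). Relative to TMM, the median log2 fold change of all tested genes moved to -0.23 in log2(TPM + 1) tested with limma, to -0.24 with libraries scaled to *Ddx4*, and to -0.42 with libraries scaled to *Ddx4* and *Dazl* together. All 7 genes stayed above zero and above that median under each of these. Scaling to markers moves all genes and their median by nearly the same amount. The place of the 7 genes above the median under it therefore carries over from TMM and is not separate support. With scaling to *Ddx4* and *Dazl*, the log2 fold changes were 0.23 for *Psmc3ip* (adjusted p = 0.235), 0.19 for *Brca2* (0.244) and 0.16 for *Mnd1*, against 0.80 for *Dmc1* and 2.65 for *Spata22*.

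**Figure D2:**
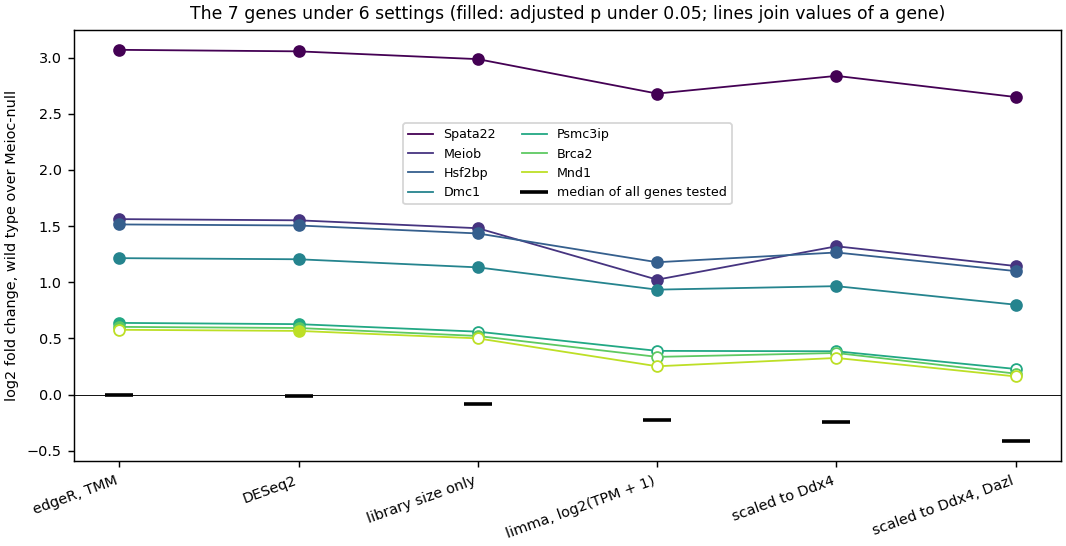
Log2 fold change of wild type over *Meioc*-null for each of the 7 genes under 6 settings (vertical axis, log2 scale). Filled points have an adjusted p under 0.05, open points do not, lines join the values of 1 gene, and black dashes give the median of all genes tested. From TMM to scaling to *Ddx4* and *Dazl*, *Spata22* falls from 3.07 to 2.65 and *Psmc3ip* from 0.64 to 0.23. *Brca2* falls from 0.60 to 0.19 and *Mnd1* from 0.58 to 0.16, while the black dashes fall from -0.0065 to -0.42.

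Some markers of germ cells moved with these results. The summed CPM of 5 germ cell markers was 1813 to 1957 in wild type and 1401 to 1467 in *Meioc*-null, and 2 of the 5 were called higher in wild type, *Dazl* (log2 fold change 0.58, adjusted p = 0.0112 by edgeR) and *Mael* (0.36). *Dazl* carried most of the sum, with a mean of 1101 CPM in wild type and 735 CPM in *Meioc*-null. The other 3 were not called, *Ddx4* (0.24, adjusted p = 0.0813) and *Piwil2* (0.20) being above zero and *Tdrd1* below it (-0.24, with means of 131 and 155 CPM). The preleptotene list of *Stra8*, *Meiosin* and *Rec8* summed to 326 to 729 CPM in wild type and 136 to 252 CPM in *Meioc*-null, with *Meiosin* alone called (means of 222 and 28.6 CPM). *Stra8* (1.14, adjusted p = 0.0948 by edgeR) and *Rec8* (0.23) were not called, and the values of each overlapped between the genotypes. *Stra8* was at 126 to 409 CPM in wild type and at 77.1 to 157 CPM in *Meioc*-null. Undifferentiated spermatogonia markers summed to 122 to 145 CPM in wild type and 160 to 258 CPM in *Meioc*-null, with *Zbtb16* alone called, lower in wild type. *Zbtb16* was the largest member of that sum (means of 64.4 and 117 CPM), and of the other 4 markers *Ret* (-0.54), *Etv5* (-0.47) and *Gfra1* (-0.14) had log2 fold changes below zero and *Id4* (0.15) above it. Of 4 differentiating spermatogonia markers, which summed to 287 to 360 CPM in wild type and 251 to 273 CPM in *Meioc*-null, *Kit* was called higher in wild type (0.55, adjusted p = 0.0175 by edgeR). *Kit* was the largest member of that sum (means of 223 and 152 CPM). The other 3 were not called, *Sohlh1* (0.20) and *Dmrtb1* (0.11) being above zero and *Ccnd2* below it (-0.17, with means of 67.0 and 75.6 CPM). The part of these differences in the values of the 7 genes was not tested. Of 6 markers of pachytene and later cells, 4 (*Ldhc*, *Acrv1*, *Tnp1* and *Prm1*) did not reach the TPM minimum, *Hspa2* was called higher in wild type (0.53, adjusted p = 0.0335 by edgeR) and *Piwil1* was not called (-0.70, adjusted p = 0.106). Of the 6 Sertoli, 6 Leydig, 4 peritubular myoid, 3 endothelial and 5 macrophage markers tested, 0 were called, beside 7.77% higher and 3.33% lower over all genes tested. This does not show equal levels. *Hsd3b1* (-0.47, adjusted p = 0.0545 by edgeR), *Dlk1* (-0.45) and *Csf1r* (-0.24) were higher in every *Meioc*-null library than in any wild-type library. No marker of these lists was so in the other direction. *Star* varied widely between pups, with 17.3 to 105 CPM in wild type and 33.8 to 265 CPM in *Meioc*-null.

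Compared per transcript length, in TPM, the order of the levels in wild type was *Dmc1*, *Brca2*, *Spata22*, *Mnd1*, *Hsf2bp*, *Psmc3ip* and *Meiob*. Length here is the effective length that kallisto used with bias correction. It was 341 to 371 bases for the 875-base *Mnd1* transcript and 3193 to 3337 bases for the 2867-base *Hsf2bp* transcript. The order between genes depends on these lengths, and an order by annotated length was not computed. The level of *Dmc1* was 79.8 to 118 TPM in wild type, overlapping that of *Brca2* at 68.2 to 87.5 TPM, and the latter overlapped that of *Spata22* at 54.1 to 84.7 TPM. *Mnd1* followed at 27.7 to 43.7 TPM, without overlap with *Spata22* above or *Hsf2bp* below it. The levels of *Hsf2bp* (17.3 to 21.3 TPM) and *Psmc3ip* (14.6 to 17.7 TPM) overlapped, and *Meiob* was the lowest at 5.69 to 11.8 TPM.

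In *Meioc*-null testes this order differed in 3 neighbouring pairs. *Spata22*, at 8.72 to 15.4 TPM, lay below *Mnd1*, at 29.0 to 32.1 TPM, with no overlap. *Hsf2bp*, at 6.32 to 9.20 TPM, lay below *Psmc3ip*, at 10.4 to 14.2 TPM, also with no overlap. *Brca2*, at 54.3 to 75.1 TPM, had a higher mean than *Dmc1*, at 46.9 to 59.9 TPM, with overlapping ranges. In TPM 5 of the 7 genes did not overlap between the genotypes, *Brca2* and *Mnd1* being those that did.

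Ratios of TPM between functional partners within a library do not depend on how libraries are scaled, and 3 were compared. *Spata22* to *Meiob* was 8.10, 13.7, 9.83 and 7.16 in wild-type replicates 1 to 4 and 2.39, 3.91 and 3.42 in *Meioc*-null replicates 1 to 3. Every wild-type library had the higher ratio, and the geometric means of 9.41 and 3.17 differed 2.96-fold. With 4 against 3 libraries the smallest two-sided p of an exact permutation test is 0.0571, so no ratio could pass 0.05, and *Spata22* to *Meiob* gave that p (0.0857 after Benjamini-Hochberg adjustment over the 3 ratios).

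*Hsf2bp* to *Brca2* was 0.254, 0.231, 0.211 and 0.243 in wild type and 0.153, 0.102 and 0.116 in *Meioc*-null, without overlap. Its geometric means of 0.234 and 0.122 differed 1.92-fold (exact permutation p = 0.0571, adjusted 0.0857). The ratio of *Psmc3ip* to *Mnd1* overlapped between the genotypes, with geometric means of 0.437 and 0.392 (exact permutation p = 0.514).

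**Figure D3:**
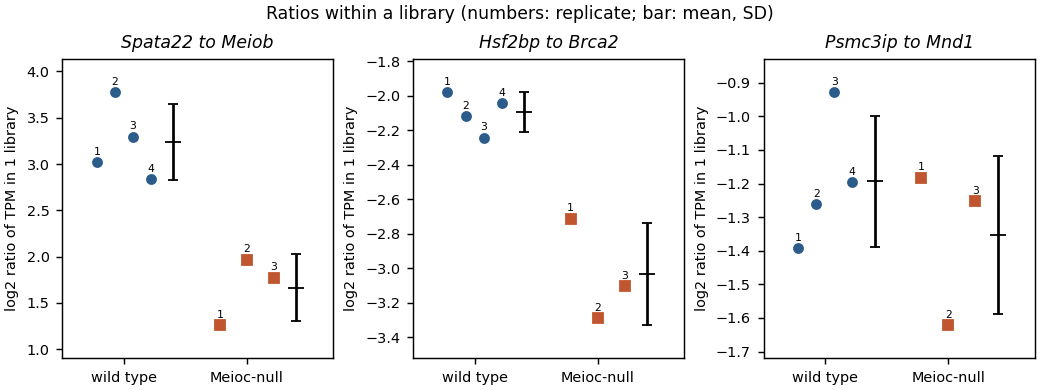
Log2 ratio of TPM of 2 genes within each library, by genotype, for 3 pairs (each vertical axis has its own range, on a log2 scale). Circles are wild-type and squares *Meioc*-null libraries, numbers are replicates, and bars give the mean and SD. The means of the genotypes differ by 1.57 for *Spata22* to *Meiob* and by 0.94 for *Hsf2bp* to *Brca2*, without overlap of the libraries. The libraries overlap for *Psmc3ip* to *Mnd1*.

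Among 27 other genes of strand exchange and homologous recombination, chosen by function, 8 were called higher in wild type, 0 were called lower and 19 did not pass the test. Over all 13630 genes tested, 7.77% were called higher and 3.33% lower. Their median log2 fold change was 0.28, beside 1.21 for the 7 genes and -0.0065 for all genes tested. *Rad51ap2* had the largest value of the 27 (log2 fold change 1.91, SE 0.376, adjusted p = 0.0180 by edgeR), with 6.86 to 20.1 CPM in wild type and 2.89 to 3.94 CPM in *Meioc*-null. *Brme1*, whose product binds HSF2BP, was measured at 16.9 to 25.8 CPM in wild type and 8.79 to 10.8 CPM in *Meioc*-null (log2 fold change 1.02, adjusted p = 0.0120 by edgeR).

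The other genes called were *Rad51ap1* (log2 fold change 1.00), *Mcm8* (0.69), *Fignl1* (0.66), *Rad54b* (0.60), *Brca1* (0.58) and *Rpa2* (0.37). *Palb2*, which links BRCA1 to BRCA2, had 22.5 to 28.9 CPM in wild type and 25.2 to 28.9 CPM in *Meioc*-null, with a log2 fold change of -0.014 (adjusted p = 0.946 by edgeR). Of the 3 RPA subunits, *Rpa1* (log2 fold change 0.11, adjusted p = 0.374) and *Rpa3* (0.42, adjusted p = 0.124) did not pass the test, and *Rpa2* did (adjusted p = 0.0270 by edgeR). With libraries scaled to *Ddx4* and *Dazl*, *Rpa2* was at -0.044 and *Rpa1* at -0.30, and *Palb2* was then called lower (-0.43, adjusted p = 0.00647 by edgeR), against a median of -0.42 over all genes tested. With this scaling 4 of the 27 were called higher and 7 lower, while over all genes tested 2.43% were called higher and 59.4% lower. Of the 8 genes called, only *Mcm8* was past the threshold without each of the 7 libraries. The number of the 27 called was 5 when wild-type replicate 4 was left out, 4 when wild-type replicate 2, wild-type replicate 3 or *Meioc*-null replicate 2 was, and 1 when *Meioc*-null replicate 3 was. Calls over all genes tested fell in these fits as well, from 1513 to as few as 131 without *Meioc*-null replicate 3.

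**Figure D4:**
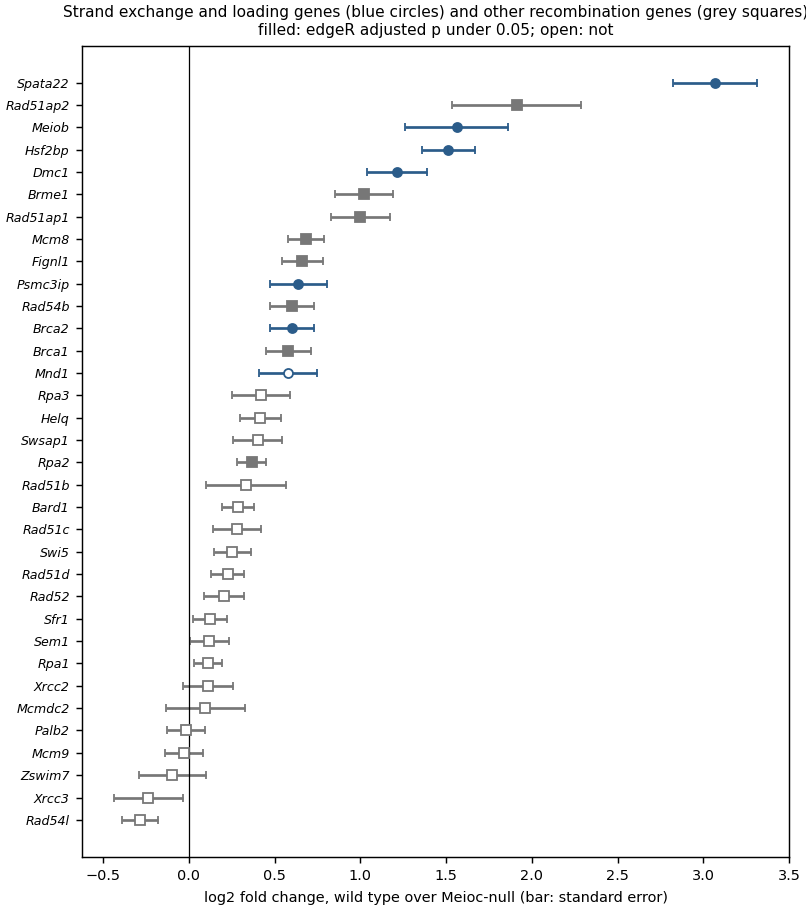
Log2 fold change of wild type over *Meioc*-null (horizontal axis, bars are standard errors) for the 7 genes (blue circles) and 27 other recombination genes (grey squares). Filled symbols have an edgeR adjusted p under 0.05; *Spata22* at 3.07 lies farthest from zero, and *Mnd1* is the 1 open circle.

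The 5 genes outside the 7 whose log2 CPM followed the mean centred profile of the 7 most closely over the 7 libraries were *Pdpk1* (r = 0.999), *Myt1l* (0.996), *Meiosin* (0.995), *Sdf2l1* (0.995) and *Majin* (0.994). The mean profile of the 7 genes is itself higher in each wild-type library than in any *Meioc*-null library, so r over these 7 libraries describes mainly that both profiles separate the genotypes. *Meiosin*, which encodes a transcription factor of meiotic entry, had a mean of 222 CPM in wild type and 28.6 CPM in *Meioc*-null, a log2 fold change of 2.95. *Majin*, which encodes a protein of meiotic telomere attachment, had means of 24.3 and 7.32 CPM.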

How the data were processed

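Bulk RNA-seq of 4 wild-type and 3 *Meioc*-null pups was analysed, grouped by the genotype in the labels; the labels give no batch. The authors made stranded libraries after rRNA removal, used cutadapt 1.8 for trimming and kallisto 0.44.0 for pseudoalignment (mm10, bias correction). They deposited an estimated count for each protein-coding transcript, without normalization, and a TPM, renormalized by the authors over protein-coding transcripts.

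Here both were summed by gene after matching transcripts to GENCODE vM21 on GRCm38 (119 of 43139 were not matched and held 0.247% to 0.282% of a library's counts). Estimated counts were rounded and tested with edgeR 4.0.16 (quasi-likelihood, TMM, R 4.3.3) over 13630 genes with TPM of at least 1 in at least 3 libraries, with Benjamini-Hochberg adjustment over all of them. The SE is the log2 fold change divided by the square root of F. The study's own tool, DESeq2 (1.42.0 here), was an alternative, with RLE factors, library size only, germ cell scaling, other filters, limma 3.58.1 on log2(TPM + 1) and log2(TPM + 0.1), a replicate block and leaving out each library. Scaling to *Ddx4* alone, adding *Gm49340* to *Spata22* and leaving out both libraries numbered 1 were chosen after seeing the data. The fits were tested on simulated data.

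Genes named are the 7 genes, *Meioc*, of 27 other recombination genes up to 10 called by size of fold change plus *Palb2*, *Brme1*, *Rpa1*, *Rpa2* and *Rpa3*, and the 5 genes most correlated with the mean of the 7. *Rad54l* and the cell type markers named singly are outside it and were picked with their values in view. The 7 genes and all lists were chosen with earlier results of these data known. One further gene of the recombination list, and a ratio that needs it, are not reported here. *Gcna* of the germ cell list had no matching row. Every pair of libraries differed by more than counting noise (at least 7.87 times its variance), so all 7 count as samples.

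The floors in CPM and the counting error given for *Meiob* cover counting error only, whereas the SD and SE values include the spread between pups. Reads carried no molecular identifiers. kallisto divides shared reads by estimation. *Psmc3ip* overlaps *Mlx*, and *Hsf2bp* overlaps *Rrp1b*, on the opposite strand, and counting used strand. Between the genotypes, the effective length kallisto used differed by -4.89% for *Mnd1* (*Meioc*-null relative to wild type) and by -0.35% to -2.50% for the other 6 genes, which moves TPM and not counts.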

Additional observations from a re-analysis of the deposited data

Results flagged for a closer look

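In 38 sets of 4 wild-type values (35 genes and 3 ratios), the lowest or highest library was compared with the others by Dixon's ratio of its gap to the whole range, against its critical value for 4 samples at 95%. Chance flags about 1 in 20 such sets, and 3 were past it. The CPM of *Spata22* was low in wild-type replicate 1 (ratio 0.846), as was that of *Brca1* (0.842). *Rad54l*, which encodes a DNA translocase, was low in wild-type replicate 3 (0.914), with 14.5 CPM against 16.9 to 17.1 CPM in the other 3 wild-type libraries, and its log2 fold change of -0.28 (adjusted p = 0.108 by edgeR) did not pass the test. Its 18.9 to 21.3 CPM in *Meioc*-null lay above every wild-type library, and it was called lower in wild type in 4 of the alternatives, at -0.70 scaled to *Ddx4* and *Dazl* (adjusted p = 0.00163 by edgeR), -0.53 scaled to *Ddx4*, and -0.48 and -0.53 in log2(TPM + 1) and log2(TPM + 0.1) by limma. Among the 7 strand exchange and loading genes, wild-type replicate 1 was the lowest wild-type library for 4. Without it the log2 fold change was 3.22 for *Spata22* and 0.69 for *Brca1*, both past the threshold.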

How the results depend on the processing

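The log2 fold changes of all 7 genes kept their direction under every alternative run, and those of *Spata22*, *Hsf2bp* and *Dmc1* also stayed past the threshold under each. Counts of the 7 called were 7 with DESeq2, 5 with library size only, 4 with either limma test or either germ cell scaling, and 6 with RLE factors, no filter, filterByExpr or *Gm49340* added to *Spata22*. *Mnd1* passed only in DESeq2 (0.57). *Psmc3ip* missed the threshold at 0.56 with library size only, 0.39 and 0.41 in log2(TPM + 1) and log2(TPM + 0.1), 0.23 scaled to *Ddx4* and *Dazl* and 0.39 scaled to *Ddx4*. *Brca2* missed it at 0.34 and 0.34 in the limma tests, 0.19 scaled to both markers and 0.37 scaled to *Ddx4*. *Rpa1* turned negative at -0.30 with both markers, -0.13 with *Ddx4*, -0.13 in log2(TPM + 1) and -0.14 in log2(TPM + 0.1), and *Rpa2* at -0.044 with both markers. Leaving out 1 library moved *Psmc3ip* over 0.49 to 0.78, *Meiob* over 1.29 to 1.69, *Brca2* over 0.53 to 0.70 and *Palb2* over -0.060 to 0.055 (0.047 without *Meioc*-null replicate 3). It moved the 7 called over 3 to 6 (3 without wild-type replicate 3, *Meioc*-null replicate 2 or *Meioc*-null replicate 3) and the 27 other recombination genes called higher over 1 to 10. All genes called were 275 to 542 without wild-type replicate 2, 3 or 4, 353 without *Meioc*-null replicate 2, and ranged from 131 (113 higher, 18 lower) without *Meioc*-null replicate 3 to 2172 (1440 higher) without wild-type replicate 1, with up to 837 lower without *Meioc*-null replicate 1, against 1513 (1059 higher, 454 lower; 70.0% higher) with all libraries. All genes called were 2331 in DESeq2 (875 lower; 62.5% higher), 1713 with library size only (899 lower; 47.5% higher), 2522 in log2(TPM + 1) (440 higher, 2082 lower; 17.4% higher), 2506 in log2(TPM + 0.1) (443 higher, 2063 lower), 8421 scaled to both markers (331 higher, 8090 lower; 3.93% higher), 3708 scaled to *Ddx4* (391 higher, 3317 lower; 10.5% higher) and 2805 without both libraries numbered 1 (1686 higher, 1119 lower). Of the 27 other genes, where 8 were called higher and 0 lower, 4 were called higher with either germ cell scaling and 5 in either limma test, and 7 lower with both markers, 1 lower with *Ddx4* and 1 lower in either limma test. Scaling to both markers moved genes together. Measured from the median of all genes tested, *Psmc3ip* was at 0.644 with TMM and 0.644 with both markers. *Brca2* was at 0.609 and 0.603 by that measure, *Rpa1* at 0.120 and 0.117, *Rpa2* at 0.374 and 0.373, and *Palb2* at -0.0075 and -0.0108. Why the markers differ between the genotypes, and the cause of the other moves, were not tested. Same-numbered libraries' deviations from their group means correlated at -0.17 to -0.012, and 0 of 3 *Meioc*-null libraries correlated best with its own number. These correlations gave no sign of a pairing by replicate number but cannot exclude one. Libraries numbered 1 were closer to each other than to their own genotypes, which deviations from group means need not show. A replicate block gave 109 calls (94 higher, 15 lower), 3 of the 7 and 0 of the 27; *Psmc3ip* was then at 0.65, *Meiob* at 1.29 and *Brca2* at 0.53, not past the threshold. The 3 ratios kept their direction in counts, in TPM + 1 and without each library. Depth limits *Meiob* most, whose lowest library held 26 counts, a counting error of 19.6%.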
